A study of Glycine max with 46 samples.

Results

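The transcripts described here are the 150 soybean genes, of 54175 in the deposited table, whose normalised read counts stood highest in dry seed. They were chosen on the measured values themselves. A gene had to average at least 200 normalised counts over the 3 dry seed replicates, and each of these replicates had to exceed all 18 replicates of the other 6 stages. Genes that met this were ranked by the dry seed mean plus 10 over the highest other stage mean plus 10, and the first 150 were taken. Of 10971 genes with a dry seed mean of 200 or more, 1540 (14.0%) met the condition on the replicates before the ranking. Every contrast of dry seed with another stage was used by this choice, so those contrasts are given as a description with no test.

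RNA was sequenced from seeds of Glycine max genotype Williams 82, grown in long days, with no other genotype, transgene or treatment in any group. Of the 7 stages, 3 fell in the drying phase (early, mid and late desiccation), 1 was the dry seed itself, and 3 followed imbibition by 3, 16 or 27 h. Each stage had 3 biological replicates, with 2 or 3 sequencing runs per replicate in the labels. Whole seed is the tissue in the labels while the protocol speaks of embryos, and no marker genes could be read against either, since the gene IDs are not paired with names or products. Nothing states that replicates came from separate plants, so p-values measure the spread between these samples only.

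Seeds such as soybean dry out at the end of maturation and stop most metabolism, and the RNA present then is stored in the dry tissue. Imbibition is the uptake of water that restarts respiration and protein synthesis. In seeds the stored messages serve as the first templates after imbibition and are replaced over the following hours by newly made transcripts. Any transcript present in dry seed may belong to the stored pool, so being highest there does not set the members apart as stored. A normalised count is a read count scaled by a factor for its run, so it is a relative level. More of a transcript in dry seed and less of other RNAs there cannot be told apart. Levels as a percentage of dry seed are on this scale and are not shares of a library.

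The sequencing runs of a replicate were not interchangeable, and this touches every result below. Run positions are called first, last (the highest run number of a replicate) and middle. First runs held 2.53 to 17.2 M reads (mega-reads), last runs 5.02 to 80.1 M, and the 4 middle runs (dry seed replicates 2 and 3, early desiccation replicate 2 and 27 h replicate 3) 2.47 to 29.5 M. Over 11862 other genes with a mean of at least 200, first and last runs of the same replicate outside dry seed correlated at r = 0.842 to 0.917 (log2 values, across genes of shared libraries, as a description). First runs of different replicates of a stage had a median r of 0.960 and last runs 0.965 outside dry seed. In each stage but early desiccation, first and last runs resembled the same position in another replicate more than each other within a replicate. This included dry seed, where first runs of different replicates correlated at 0.961 to 0.982 and last runs at 0.961 to 0.977. In early desiccation the medians were 0.887 for first and 0.885 for last runs between replicates, and 0.893 for first and last runs of the same replicate. In dry seed the first and middle runs of a replicate correlated at 0.997 and the first and last at 0.947 to 0.954. The middle run of early desiccation correlated at 0.906 with the first and 0.933 with the last run of its replicate. The middle run of 27 h correlated at 0.930 and 0.944 in the same order. Late desiccation replicate 3 was represented here by its first run alone, at 2.53 M reads. The labels list a second run for it that no column of the table names, and 1 column, a second run of a replicate 3 under a stage code that no label uses, matched no sample and was not used. Whether that column is the missing run was not settled, which touches every late desiccation value.

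Replicates also stood apart by the number of genes listed at 0. In early desiccation replicates 1 and 2, late desiccation replicate 3 and dry seed replicate 1, the 8 runs had 18411 to 26846 genes at 0. The 37 runs of the other replicates had 1671 to 16580, and their last runs at most 9878. These 4 replicates divide early desiccation, late desiccation and dry seed internally, and their part in the results was not tested. Of the members, 36 were at 0 in at least 1 run of these replicates, 3 of them among the 100 with runs alike described next. The rule applied without the 4 replicates kept 113 of the 150 members, and the comparisons between stages are given below with and without them.

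Members fell into 3 sets by how their runs compared, with a 4-fold difference chosen after the values were seen. In 100 members the runs were alike by this measure. In 36 members the first runs outside dry seed averaged at least 4-fold under the last runs, while in no member were the first runs of dry seed 4-fold under its last runs. In 14 members the last runs of dry seed averaged at least 4-fold under its first runs, and 1 member of the 36 did so as well. Among genes with a last-run mean of at least 100 outside dry seed, 32 of 132 members had first runs 4-fold lower, against 0.873% of all 17182 such genes. Dry seed last runs were 4-fold lower in 15 of 150 members, against 0.844% of the 14806 genes with a dry first-run mean of at least 100. The rule ranked by averages of these same runs, and low first runs outside dry seed lower the other stage means. Both shares thus describe the chosen genes and are no result about them. Where run positions disagree, the average that the rule ranked by is a value that neither position shows, so first and last runs are given side by side below.

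**Figure D1:**
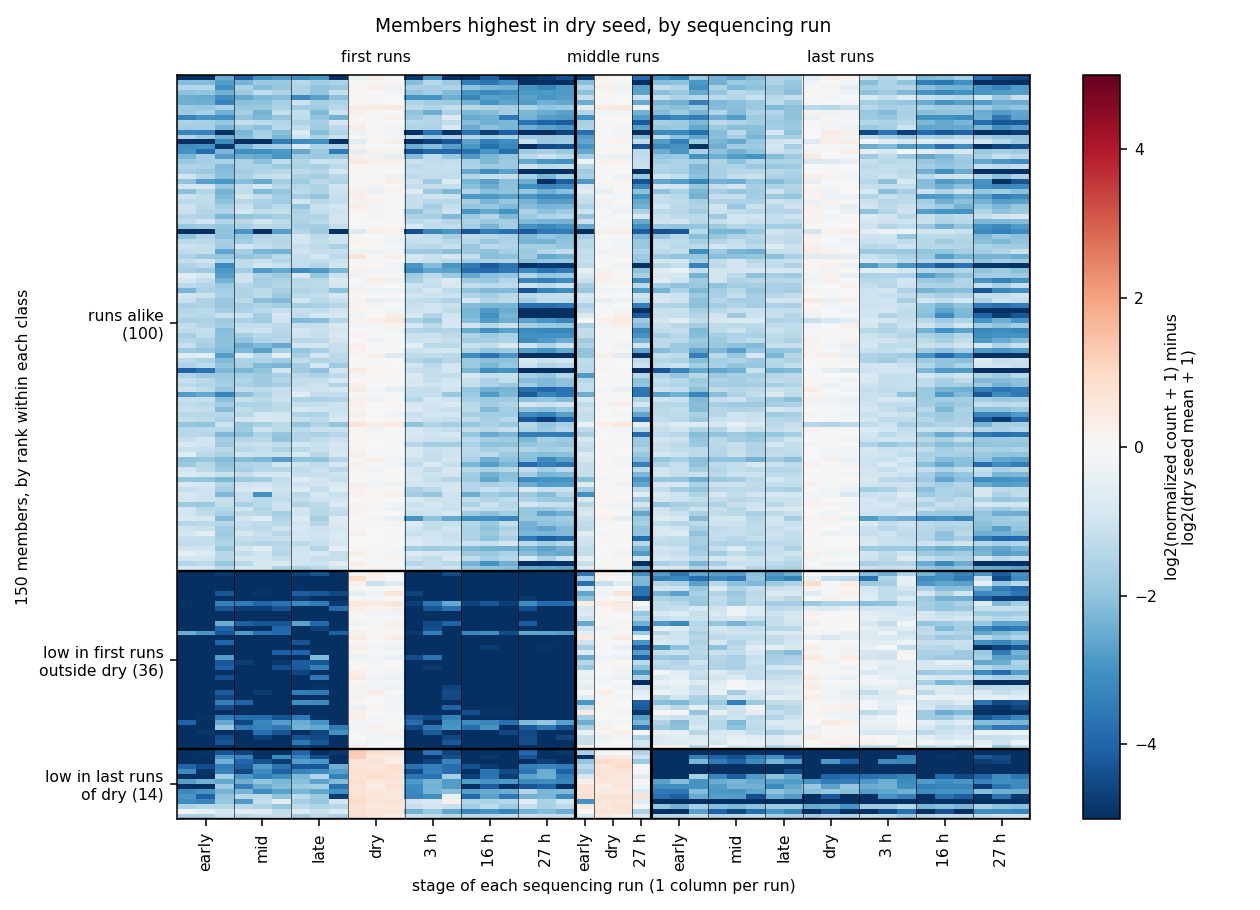
Level of each of the 150 members (rows, by rank within 3 sets) in each of the 45 sequencing runs (columns, by run position and stage), as log2(normalised count + 1) minus the log2 dry seed mean. Most of the upper 100 rows are pale in dry seed runs and blue elsewhere. The next 36 are dark blue in most first runs outside dry seed and paler in most last runs, and the lowest 14 are dark or mid blue in the last runs of every stage, dry seed included.

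With runs averaged, the members' dry seed means ran from 204 to 116034 normalised counts with a median of 1032. The coefficient of variation over the 3 dry seed replicates had a median of 10.3%, and replicate 1 stood at 0.461 to 1.99 times the mean of the other two, median 1.07. The median member mean was 328 in early, 343 in mid and 350 in late desiccation. After imbibition it was 407, 245 and 212 in the order of the hours. The typical member was thus at a similar level through the drying stages, stood higher in dry seed, and was lowest at 27 h. The stage next to dry seed in level was 3 h for 71 members, late desiccation for 36, early desiccation for 19, 27 h for 12, mid desiccation for 10 and 16 h for 2. Over all 10971 genes with a dry seed mean of 200 or more, 3 h was the highest other stage in 32.0% and late desiccation in 9.94%. The highest other stage mean entered the rule, so these counts are a description. In the last runs alone 3 h was next for 79 members and late desiccation for 27.

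The rule's ratio ran from 1.91 to 14.9, with a median of 2.16 and an upper quartile of 2.53, so most members stood about 2-fold above the next stage and few stood far above it. It was at least 2 in 113 members and at least 3 in 18. The last 2 members were Glyma11g15870 and Glyma13g44360, both at 1.906, followed by the excluded Glyma12g31186 at 1.905 and Glyma02g33215 at 1.904. Glyma13g44360 averaged 1961 ± 190 normalised counts in dry seed (SD, n = 3) and 1024 ± 252 in early desiccation, its next stage. Just outside, Glyma12g31186 averaged 886 ± 90.6 in dry seed and 460 ± 116 at 3 h. The ratios on either side of the threshold were nearly equal, so the list ends without a gap.

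When the condition on replicates was read in single run positions, dry seed stood above all other stages in all but 1 of the 150 members in the first runs, where the share of all genes with a dry mean of at least 200 was 13.4%. In the last runs it did so in 107 of 150 (71.3%), against 15.8% of genes. In the middle runs both dry seed libraries exceeded the early desiccation and 27 h libraries in 143 of 150, against 39.2% of genes. Across other genes, middle runs correlated with first runs of the same replicate at 0.997 in dry seed. In early desiccation and 27 h they did so at only 0.906 and 0.930. The middle-run count thus compares unlike libraries and is no separate check of the pattern. Runs of every position are repeats of replicates that the rule used, so the counts are not independent of it. The ratio over the next stage had a median of 2.31 in the first runs and 1.92 in the last runs. In the last runs 59 members had a ratio of at least 2, and 14 had a ratio under 1, which means that another stage stood higher. The lower of the first-run and last-run ratios was at least 2 in 39 members.

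**Figure D2:**
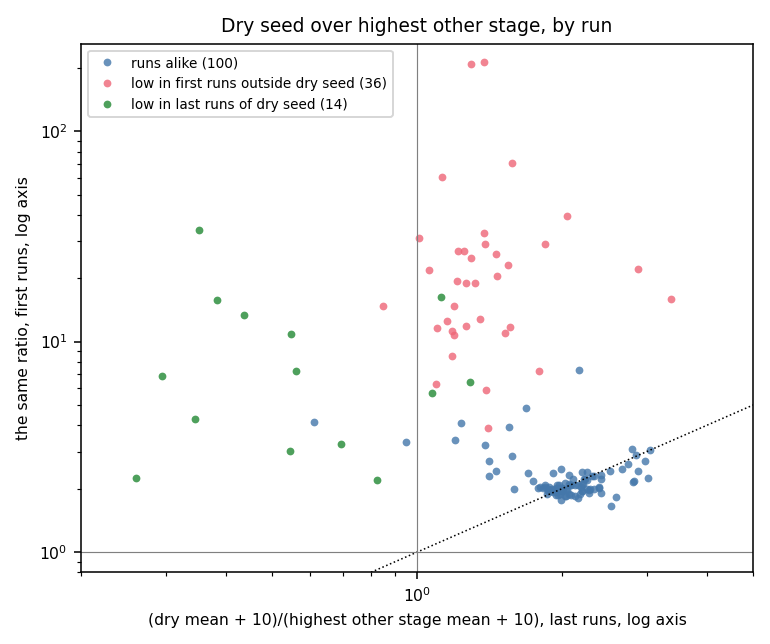
Ratio of the dry seed mean plus 10 to the highest other stage mean plus 10 in last runs (horizontal, log axis) and first runs (vertical, log axis), 1 point per member, coloured by set. The dotted line marks equal ratios. The 100 members with runs alike gather near 2 on both axes, while the 36 members low in first runs outside dry seed reach a first-run ratio of 213 at last-run ratios near 1.31, and most of the 14 others lie left of 1.

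The 100 members with runs alike showed the dry seed pattern in first and last runs. They were picked by the rule and then by the likeness of their runs, so the values of this set are a description. Their ratio had a median of 2.05 in the first runs and 2.04 in the last runs, and dry seed was above every other replicate in 99 of them in first runs and in 94 in last runs. In all 100 it was above the other 2 libraries of the middle runs, with the limit given above for these runs. In 2 of the 100 another stage mean was higher in the last runs, and the lowest last-run ratio was 0.610, in Glyma08g00420. By the last runs, the median member of this set stood at 37.0% of its dry seed level in early desiccation, 38.0% in mid and 40.4% in late desiccation. After imbibition it stood at 45.9%, then 31.2%, then 23.4%. The first runs gave 34.5%, 35.1%, 42.4%, 43.5%, 25.4% and 19.2% in the same order. In both run positions the median thus changed little during drying and was lowest at 27 h.

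The set spread widely by 27 h. In the last runs 21 of the 100 were under 10% of their dry seed level, 31 were between 10% and 25%, 42 between 25% and 50%, and 6 at 50% or more. The extremes were 0.756% and 73.3%. Some of these transcripts thus stood at a small fraction of their dry seed level at 27 h on the normalised scale, while a few were still at 50% or more of it. A small fraction is not absence. Glyma11g15870, the member at 0.756%, still had a 27 h mean of 880 normalised counts with runs averaged.

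The 4 members of this set with the highest lower ratio, chosen after their values were seen, show the pattern gene by gene. Glyma16g03320 (rank 18) held 31108, 34611 and 32846 normalised counts in the 3 dry seed replicates. It held 7399, 7630 and 4642 in early, 6426, 9319 and 8815 in mid, and 11979, 9402 and 10980 in late desiccation. After imbibition it held 7533, 11772 and 8567 at 3 h, 2964, 2656 and 3977 at 16 h, and 240, 288 and 368 at 27 h. Dry seed lay far above every other stage and the 27 h replicates far below, with no overlap of either with any other stage. Its ratio was 3.06 in the first runs and 3.05 in the last runs.

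Glyma11g34940 (rank 24) held 11324, 10383 and 9210 in dry seed. Its late desiccation replicates held 3323, 2464 and 4488, its 3 h replicates 2567, 3133 and 2278, and its 16 h replicates 1324, 1107 and 1287. At 27 h it held 1389, 1429 and 1527, above all 16 h replicates, so it was lowest at 16 h. Its ratio was 2.88 in first and 2.86 in last runs.

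Glyma06g20980 (rank 20) held 4571, 5080 and 3517 in dry seed. It held 1370, 1111 and 1224 in late desiccation, 1403, 1448 and 1566 at 3 h and 580, 432 and 632 at 27 h. In early desiccation replicate 3 it held 526, under replicates 1 and 2 at 1733 and 1611. Glyma03g33620 (rank 33), a member with low counts, held 502, 387 and 379 in dry seed. It held between 80.6 and 199.6 in the 9 desiccation replicates and between 67.5 and 141 in the 9 imbibed replicates. In both genes the 3 dry seed replicates were above all others in first and last runs.

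**Figure D3:**
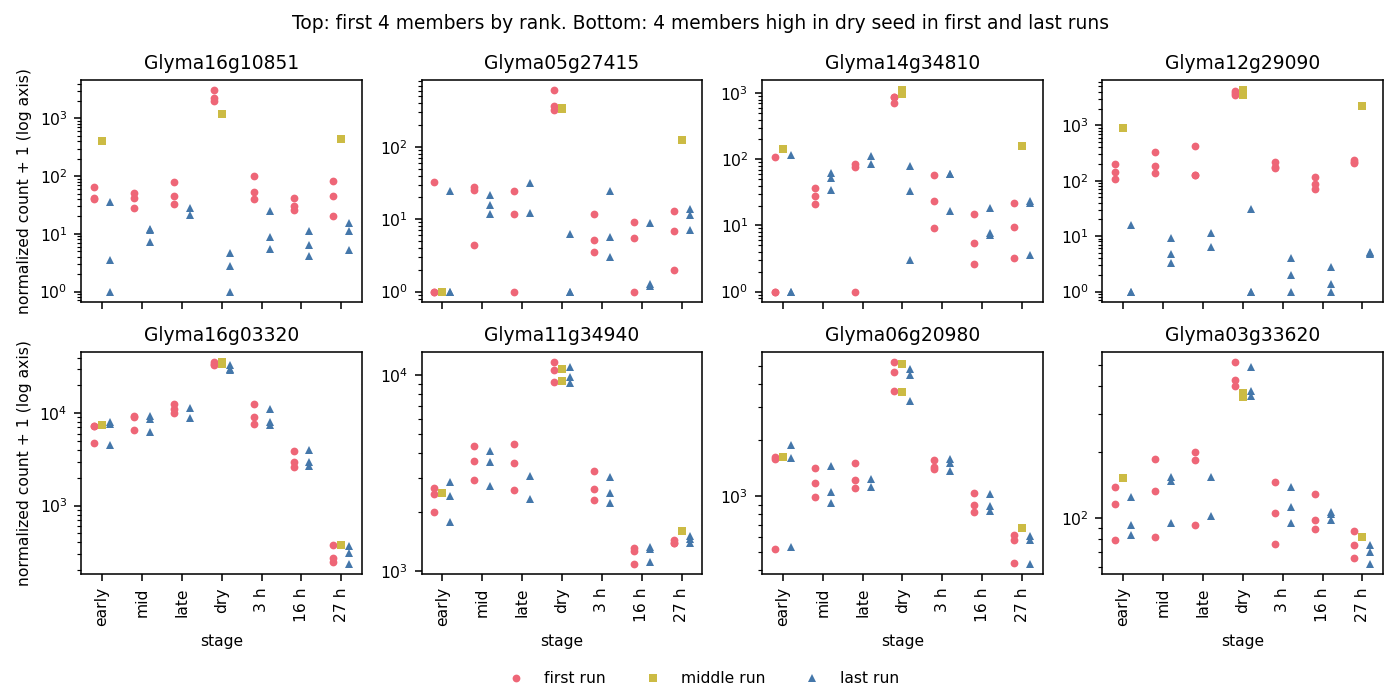
Normalised count + 1 (log axis) of 8 members in every sequencing run, by stage, with 1 point per run and symbols for run position. In the upper 4, which rank highest, the dry seed first and middle runs (circles, squares) stand high and its last runs (triangles) do not. In the lower 4, from Glyma16g03320 to Glyma03g33620, all dry seed runs stand above the other stages.

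Glyma11g15870, the member with the most dry seed counts, also had runs alike. Counts are not scaled by length, so levels are not compared between genes, but this gene alone made up 18.2% of the members' summed dry seed counts and the 10 members with most counts 59.6%. It held 129451, 107066 and 111586 normalised counts in dry seed. In late desiccation it held 52497, 48674 and 81411, where the third value is the replicate with a first run only. It then held 40505, 46859 and 44683 at 3 h, 21828, 13826 and 21331 at 16 h, and 891, 741 and 1006 at 27 h. Its stages did not overlap from late desiccation to dry seed or between any of the imbibed stages, and at 27 h its last runs averaged 0.756% of its dry seed level, the lowest value among the 100. Its ratio of 1.91 nonetheless placed it at the end of the list.

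The 36 members with low first runs outside dry seed had very different ratios by run. Their median ratio was 19.2 in the first runs and 1.31 in the last runs. Dry seed was above all other stages in all 36 in the first runs and in 13 in the last runs. In 32 it was above both other libraries of the middle runs, with the limit given above for these runs. Glyma12g09380, second by dry seed counts, is of this kind. Its dry seed replicates held 52675, 43908 and 45114 in the first runs and 57516, 48196 and 51211 in the last runs. Its early desiccation replicates held 115, 130 and 233 in the first runs but 39438, 41563 and 31031 in the last runs, and the middle run of replicate 2 held 40025. At 3 h it held 176, 213 and 186 in the first runs and 42085, 43180 and 35689 in the last. Its ratio was 209 in the first runs and 1.30 in the last, so both run positions put dry seed on top but by very different margins. At 27 h it held 763, 654 and 1148 in the last runs, again the lowest stage.

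Glyma06g44380 (rank 6) had the highest first-run ratio of all members, at 213. Its first runs held 4131, 2478 and 2168 in dry seed and between 0 and 5.90 in all 18 other replicates. Its last runs held 1700, 944 and 833 in dry seed and 174, 722 and 1617 at 3 h, so the groups overlapped there and the ratio was 1.38.

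In 2 other members of this set dry seed stood well apart in last runs too. Glyma17g19860 (rank 5) held 294, 414 and 322 in the first and 327, 351 and 252 in the last runs of dry seed. Its other stages held at most 16.2 in any first run and at most 118 in any last run. Its ratio was 15.9 in first and 3.38 in last runs, the highest last-run ratio of all members. Glyma15g15793 (rank 9) held 696, 376 and 491 in the last runs of dry seed and at most 280 in any other last run, a ratio of 2.88. It lies next to Glyma15g15786 (rank 60) in ID order, the only pair of neighbouring members. Glyma15g15786 held 223, 196 and 187 in the last runs of dry seed, with a mean of 169 at 3 h, and its ratio was 8.51 in first and 1.18 in last runs. The neighbours thus shared low first runs outside dry seed but differed in how far dry seed stood apart in the last runs. Without strand or length in the files, reads shared between neighbouring or overlapping gene models cannot be told apart.

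The 14 members with low last runs of dry seed include the 4 that rank highest. Glyma16g10851, rank 1 with a ratio of 14.9, held 1535, 1161 and 1076 in dry seed and at most 167 in any other replicate when runs were averaged. Its dry seed runs disagreed. The first runs held 3070, 2289 and 2037, the middle runs of replicates 2 and 3 held 1193 and 1188, and the last runs held 0, 1.76 and 3.61. In last runs its dry seed level was therefore at or near 0, and the highest last-run value of any stage was 34.9, in early desiccation replicate 3. The middle runs of early desiccation replicate 2 and 27 h replicate 3 held 412 and 444, above the first and last runs of the same replicates.

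Ranks 2 to 4 had the same form. Glyma05g27415 averaged 254 ± 42.0 in dry seed (SD, n = 3), with a ratio of 15.8 in first and 0.384 in last runs. Glyma14g34810 averaged 569 ± 120, with a ratio of 13.4 in first and 0.437 in last runs. Glyma12g29090 averaged 2342 ± 476, with 3748, 3472 and 4219 in first runs and 0, 30.0 and 0 in last runs of dry seed. Over the 14 members the ratio had a median of 6.66 in first runs and 0.545 in last runs, and dry seed was above all other stages in none of them in the last runs. They include 6 of the first 10 members by rank, and the other 4 of those 10 belong to the set with low first runs outside dry seed. Of the first 50 by rank, 17 had runs alike.

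The gene IDs of these sets differed in form. IDs in the table end in 0 for most genes, and 46 of 150 members (30.7%) did not, against 12.1% of all genes with a dry mean of at least 200. By set this was 21 of 100 with runs alike, 18 of 36 and 7 of 14. Among all genes with a last-run mean of at least 100 outside dry seed, first runs were 4-fold lower in 3.39% of those with other endings and in 0.529% of those ending in 0. What the ending stands for is not given in the sources used here, and its part in the run differences was not tested. Read from the IDs, members lay on all 20 chromosomes, with 2 to 11 members each, and 1 lay on a scaffold.

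Together the members took a larger share of dry seed libraries than of any other. They held 3.56% ± 0.0528 of all normalised counts in the first runs of dry seed and 3.16% ± 0.102 in the last runs (SD, n = 3). In late desiccation they held 1.22% ± 0.0593 in first runs (n = 3) and 1.53% and 1.66% in the 2 last runs. At 3 h they held 1.07% ± 0.0340 in first runs and 1.43% to 1.57% in the 3 last runs. By 27 h this had gone to 0.466% ± 0.0293 and 0.645% ± 0.0627. The dry seed runs did not overlap those of any other stage, a place that the choice of members fixed. The order of the other 6 stage means was the same in first and last runs.

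**Figure D4:**
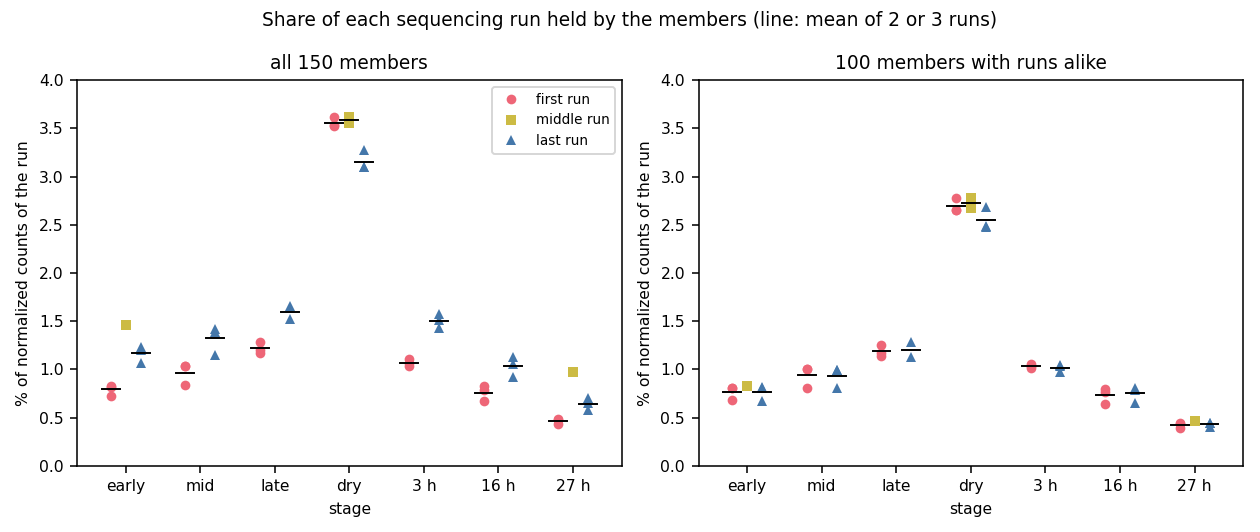
Share of each run's normalised counts held by all 150 members (left) and by the 100 with runs alike (right), by stage, 1 point per run with lines for means. All dry seed runs lie above 3% on the left, and within each run position the 27 h runs lie lowest. On the right, first and last runs nearly coincide at each stage.

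Comparisons among the 6 other stages were not the contrast that chose the members, though the values of these stages entered the rule. The comparisons were tested with limma over all 46537 genes that passed the filter on low values, with runs averaged per replicate. All 150 members passed that filter without dry seed. Every member had a dry seed mean of at least 200, which only 10971 genes reached, so the genes tested include many at lower levels. Shares of calls among genes of a like level were not computed, which limits each comparison with all genes below. Calls needed a limma adjusted p under 0.05 together with at least a 2-fold change. The choice of members held down all 6 stages relative to dry seed without fixing an order among them. Successive comparisons share a stage's libraries, so their counts are not independent.

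Between early and late desiccation, 5 members rose and 0 fell, against 0.355% of all genes that rose and 0.269% that fell. The median log2 change was 0.07 over members and 0.39 over all genes tested. When 1 replicate was left out, the median of all genes ran from 0.17 to 0.83 and the members' median stood from 0.74 below it, without early desiccation replicate 3, to level with it, without early desiccation replicate 2. In the first runs alone the members' median was 0.01 above that of all genes. At an unadjusted p under 0.05, 47 members differed, against 15.3% of all genes, and DESeq2 on recovered reads called 6 higher and 0 lower (0.456% and 1.46% of all genes). The first runs alone gave 6 rises and 0 falls (0.335% and 0.32% of all genes), and the last runs alone 8 and 0 (0.231% and 0.817%). All 5 had runs alike and were called in both run positions. Glyma16g29750 held 2361, 2634 and 709 in early desiccation and 11860, 6649 and 7187 in late desiccation, without overlap. It rose by 2.33 ± 0.39 on the log2 scale (SE; limma adjusted p = 0.00865). Glyma07g06750 held 132, 113 and 59.5 in early, 263, 443 and 286 in mid and 748, 293 and 443 in late desiccation, and rose by 2.24 ± 0.35 from early to late (limma adjusted p = 0.00481). In dry seed both stood higher still, at 20896 ± 1968 and 1244 ± 119 (SD, n = 3). Without late desiccation replicate 1, 1 member was called, where 0.113% of all genes rose and 0.0532% fell, and the call of Glyma16g29750 was lost at an adjusted p of 0.0552 by limma. With only the 2 compared stages in the fit, the limma adjusted p was 0.238 for Glyma16g29750 and 0.0568 for Glyma07g06750. Without both replicate 3 libraries of these stages, 19 members rose and 5 fell, but 50.2% of all genes were called in that fit, 20667 of 44930 as rising and 1876 as falling, with a median log2 change of 1.10 over all genes and -0.02 over members. Rises were thus common among all genes in that fit, and the members' 19 are no result about them. That fit sets the early desiccation replicates with most genes at 0 against the late desiccation replicates with few. Without all 4 replicates with most genes at 0, which leaves 1 early desiccation library whose spread is taken from the other stages, 10 members rose and 0 fell (0.377% and 0.452% of all genes), and the median log2 change was 0.40 over members and -0.17 over all genes. Across other genes the last runs of early desiccation replicate 3 correlated at 0.883 and 0.885 with those of replicates 1 and 2, which correlated at 0.989 with each other. The 5 rises thus passed the test in the full data, while how the members moved relative to genes at large depended on which libraries were used.

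From late desiccation to 3 h after imbibition, which skips dry seed, 0 members rose and 4 fell, against 0.662% and 0.685% of all genes. The median log2 change was 0.19 over members and -0.07 over all genes. Glyma07g06750 fell from 748, 293 and 443 to 40.5, 95.1 and 44.5, without overlap, by 3.02 on the log2 scale (SE 0.35; limma adjusted p = 0.000201). Having risen through drying to a mean of 1244 in dry seed, it thus stood at 60.0 ± 30.5 at 3 h. Glyma04g01540 fell by 1.70 (SE 0.25; limma adjusted p = 0.00117) with averaged runs, from 626, 471 and 1042 to 177, 257 and 196, but belongs to the set with low last runs of dry seed and was not called in last runs (adjusted p = 0.315). The first runs alone gave 0 rises and 4 falls (0.725% and 0.748% of all genes), and the last runs alone 3 and 2 (1.34% and 0.569%). Of the members, Glyma07g06750 and Glyma10g30840 were called lower in both. At an unadjusted p under 0.05, 51 members differed in the limma fit, against 13.8% of all genes. The edgeR test on recovered reads called 17 higher and 3 lower (4.25% and 0.2% of all genes), and DESeq2 6 and 4 (0.997% and 1.25%). TMM scaling moved the median of all genes by 0.42 on the log2 scale, and 18 members then rose and 2 fell, against 5.49% and 0.234% of all genes. The members' median stood 0.26 above that of all genes with the deposited scaling and 0.30 above it with TMM. This gap rested on single libraries: it was -0.01 without late desiccation replicate 1, 0.06 without replicate 2, 0.93 without replicate 3 and 1.01 in the last runs alone. Late desiccation replicate 3, with a first run only, was more than 4-fold under both other replicates in 38 members, 32 of them among the 36 with low first runs outside dry seed, against 3.32% of genes at 100 or more in both others. The rule used these values, so that share is a description. Without late desiccation replicate 3, 1 member rose and 3 fell (1.31% and 0.858% of all genes). Without late desiccation replicate 2, 6 rose and 4 fell (0.56% and 0.547%), and without 3 h replicate 1, 0 rose and 2 fell (0.329% and 0.275%). Without all 4 replicates with most genes at 0, 3 rose and 5 fell, against 1.68% and 12.9% of all genes.

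From 3 h to 16 h after imbibition 21 members fell and 0 rose, against 2.27% of all genes that fell and 4.77% that rose. The median log2 change was -0.68 over members and -0.33 over all genes. At an unadjusted p under 0.05, 69 differed, against 23.1% of all genes. The edgeR test on recovered reads called 0 higher and 20 lower (4.51% and 2.2% of all genes), and DESeq2 0 and 23 (5.98% and 3.47%). Without the 4 replicates with most genes at 0, none of which is of these stages but which enter the shared estimate of the spread, 0 members rose and 33 fell, against 9.47% and 15.6% of all genes. The first runs alone gave 0 rises and 22 falls (5.03% and 2.33% of all genes), and the last runs alone 0 and 28 (5.03% and 2.34%). All 21 had runs alike, and 17 members were called lower in both run positions. Glyma10g21850 held 355, 348 and 314 at 3 h and 112, 67.1 and 115 at 16 h, and fell by 1.82 on the log2 scale (SE 0.42; limma adjusted p = 0.00622). Glyma01g37296 held 468, 474 and 527 at 3 h and 206, 125 and 132 at 16 h, and fell by 1.70 (SE 0.42; limma adjusted p = 0.00983, and 0.0572 without 16 h replicate 2). In neither gene did the stages overlap. The 3 h replicates of each lay close together, and the fall ran on to 27 h, where the replicates held 8.16, 12.2 and 6.03 of the former and 15.3, 14.1 and 24.4 of the latter.

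From 16 h to 27 h after imbibition 31 members fell and 5 rose, against 8.35% of all genes that fell and 6.45% that rose. The median log2 change was -0.43 over members and 0.41 over all genes tested. With TMM scaling 28 members fell and 9 rose, while 7.33% of all genes fell and 8.33% rose. Without the 4 replicates with most genes at 0, 42 fell and 9 rose, against 9.87% and 19.1% of all genes. The first runs alone gave 5 rises and 26 falls (6.08% and 8.09% of all genes), and the last runs alone 3 and 44 (7.53% and 8.55%). Of the 36 called, 28 had runs alike, and 25 members were called lower and 2 higher in both run positions. Glyma11g15870, whose values are given above, had the deepest fall and fell by 4.41 on the log2 scale (SE 0.23; limma adjusted p = 9.32e-12). Glyma14g38570 held 5871, 6151 and 4837 at 3 h, 2632, 1747 and 2310 at 16 h and 123, 118 and 189 at 27 h, and fell by 3.96 from 16 h to 27 h (SE 0.19; limma adjusted p = 2.80e-12). Its dry seed replicates had held 13152, 11650 and 10258, so it lost counts at each step after dry seed.

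Of the members that rose, Glyma10g30840 held 125, 132 and 110 at 16 h and 286, 299 and 312 at 27 h, a rise of 1.29 ± 0.32 on the log2 scale (SE; limma adjusted p = 0.00439). It had fallen from 611, 331 and 686 in late desiccation to 144, 237 and 184 at 3 h, so its lowest stage was 16 h. Glyma12g29090 rose by 2.29 ± 0.72 (SE; limma adjusted p = 0.0280) with averaged runs, from 57.7, 43.1 and 35.3 to 112, 121 and 800. The value of 800 includes the middle run of replicate 3 at 2189, beside 207 in its first and 4.11 in its last run. In the last runs alone it was not called (adjusted p = 0.374), and the limma adjusted p was 0.192 without 27 h replicate 3 and 0.0512 to 0.101 when each 16 h replicate was left out.

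**Figure D5:**
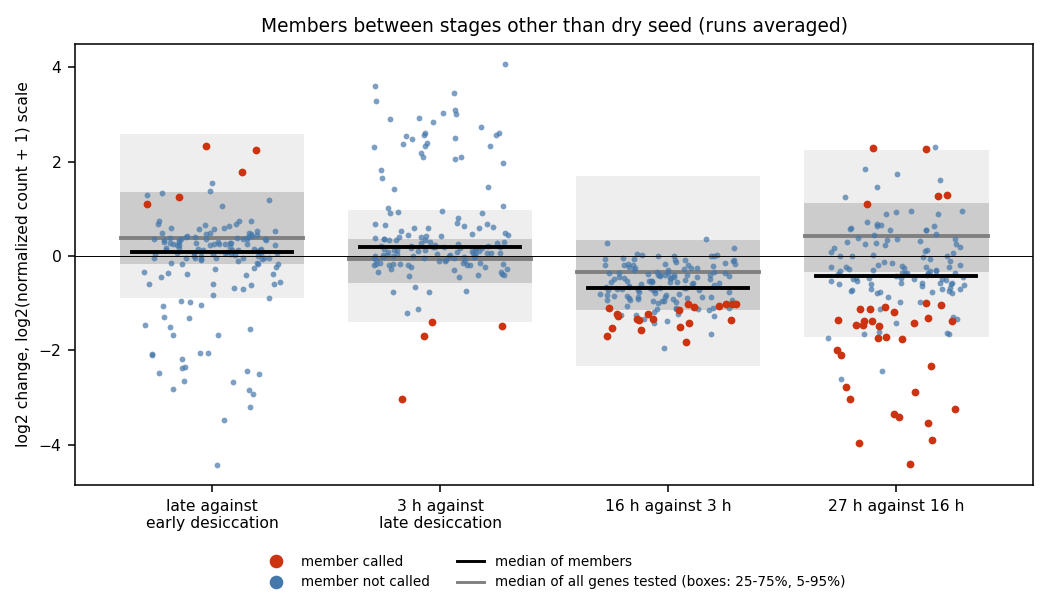
log2 change of each member (points, log2(normalised count + 1) scale) in the 4 comparisons between stages other than dry seed, with called members in red, the members' median in black, and the median and the central ranges of all genes tested in grey. The members' median lies below that of all genes at 16 h against 3 h and at 27 h against 16 h, where 21 and 36 members were called. Most called members fell in both.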

How the data were processed

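The deposited table holds signal values per gene and sequencing run that the authors named DESeq-normalized counts. Reads were trimmed with Trimmomatic 0.38 and aligned with HISAT2, per the submitters' processing notes. The counting tool, genome build, annotation and use of strand were not given in the sources used here. Each value divided by the smallest step of its run came out whole within 0.001 reads for at least 99.996% of values, so whole reads were recovered, with 1 read worth 0.173 to 8.95 normalized counts. Of 46 columns 45 matched a sample. The 1 that matched none, a second run of a replicate 3 under a stage code that no label uses, was not used, and late desiccation replicate 3, whose second run in the labels no column names, rests on its first run alone. Depth per replicate was 2.53 to 86.5 M reads (mega-reads), and counts cover sampling of reads only. None of the 54175 IDs matched the 59048 genes of the reference table (0 matched), so no names, products or sequences are given.

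Runs were averaged per replicate. limma 3.58.1 (R 4.3.3; trend, robust) was fitted to log2(value + 1) over genes that reached 10 normalized counts in 3 or more replicates, all 7 stages in 1 fit, with Benjamini-Hochberg adjustment over all genes tested; a change on this scale understates that of low genes. The fit was tested on simulated counts drawn without differences between run positions and without added genes at 0. That test cannot bear on how runs that disagree affect the results. Named members are the first 4 by rank, the 2 with most dry seed counts, the 2 genes on either side of the threshold, neighbours in ID order, and per comparison the 2 largest rises and falls among called members without overlap; other members were named after their values were seen. The members, lists and tests were chosen with earlier results of these data known. Replicate numbers did not pair the samples: correlations of same-numbered deviations between compared stages ran from -0.259 to 0.145. Alternatives were a pseudocount of 5, no filter, TMM, the first run alone, a replicate block, no fold threshold, the 2 compared stages alone, edgeR 4.0.16 and DESeq2 1.42.0 on recovered reads, and each replicate left out. The last run alone, the joint removal of both replicate 3 libraries of early and late desiccation and that of the 4 replicates with most genes at 0 were added after seeing the data. Descriptions and figures were made in Python 3.11.15 (pandas 2.3.3, numpy 2.4.6, matplotlib 3.10.9).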

Additional observations from a re-analysis of the deposited data

Results flagged for a closer look

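Glyma04g42550 (rank 65) stood out because its dry seed replicates lay above all other stages in the first runs and below all of them in the last runs. The ratio of dry seed to the highest other stage was 3.03 in first runs and 0.545 in last runs. Dry seed held 610, 530 and 535 normalised counts in the first runs, 537 and 610 in the middle runs, and 64.0, 67.0 and 46.9 in the last runs. The difference between run positions was not tested.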

How the results depend on the processing

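Membership under another setting was counted as the genes of the list that recurred. The first runs alone kept 81 of the 150 and the last runs alone 84, and 1540 genes passed before the first 150 were taken. With 1 replicate left out the lists shared 125 to 150 members, the fewest without dry seed replicate 1. The 5 calls for late against early desiccation became 3 with TMM scaling (85 of all 45718 genes rose and 62 fell). They became 1 with only the 2 compared stages (22 and 8 of 43410) and 1 with edgeR on recovered reads (46 and 41 of 46537). They were 8 with the last run alone and 24 without both replicate 3 libraries, with all genes given above. They ran from 1 to 7 when 1 replicate was left out. Without early desiccation replicate 3 the 7 stood beside 6646 rises and 1425 falls among 44990 genes. Without late desiccation replicate 3 the 7 stood beside 137 and 393 among 46488. The 4 calls for 3 h against late desiccation became 20 with TMM, 20 with edgeR, 10 with DESeq2 and 7 without both replicate 3 libraries. In the last of these fits 724 of all 44930 genes rose and 1404 fell. Over left-out replicates the members' calls ran from 2, without 3 h replicate 1, to 10, without late desiccation replicate 2. The 21 calls for 16 h against 3 h became 35 with only the 2 stages (4032 of all 32772 genes rose and 2797 fell). With no fold threshold they became 45 (2995 and 2807 of 46537). They ran from 16, without 16 h replicate 2 (1498 and 709 of 46511), to 25, without 16 h replicate 1 (1946 and 1109 of 46529). The 36 calls for 27 h against 16 h became 62 with no fold threshold (4335 of all 46537 genes rose and 5861 fell). They became 50 with only the 2 stages (8378 and 4417 of 32801), 46 with edgeR (3588 and 3444 of 46537) and 53 with DESeq2 (3944 and 4536 of 46537). The last run alone gave 47. Over left-out replicates they ran from 28, without 16 h replicate 1 (2064 and 3540 of 46529), to 36, without 16 h replicate 2 (2741 and 3852 of 46511). The cause of these moves was not tested. The replicate number as a replicate block gave 5, 4, 21 and 36 calls, and no named change turned direction under any alternative tried. Without the 4 replicates with most genes at 0 the calls were 10, 8, 33 and 51 in the same order. Of the values for named changes under alternatives, 169 kept direction and call and 11 kept direction only. Recovered reads were summed over runs, which gives the deeper last runs more weight than averaging does. Depth limits late desiccation replicate 3, where 1 read is worth 8.68 normalised counts.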
